A study of Mus musculus with 2 samples.

Results

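The Polycomb complex genes described here were 10 genes, 6 of Polycomb repressive complex 2 (PRC2: *Ezh1*, *Ezh2*, *Eed*, *Suz12*, *Jarid2* and *Mtf2*) and 4 of Polycomb repressive complex 1 (PRC1: *Ring1*, *Rnf2*, *Cbx7* and *Bmi1*). They were found on the arrays as every probe whose accession belongs to 1 of these gene symbols, which gave 14 of 55681 probes and 10 of 37018 genes. In counts of genes, a probe without a symbol counts under its name on the array. A test was possible for 9 of them, among 24031 genes tested, because a spot of *Rnf2* carried an outlier flag on 1 array. Both channels of both arrays read these 9 well above background.

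RNA came from mouse embryonic stem cells (mESCs) of the genotype AIMP3f/f;cre-ERT2, derived from blastocysts, in which tamoxifen (4-OHT) switches on a Cre recombinase that deletes *AIMP3*, the gene listed on the arrays as *Eef1e1*. AIMP3-depleted cells had received 2 μM tamoxifen for 4 days (2 replicates), and control cells had received ethanol for the same time, both with LIF in the medium. Each array compared 1 depleted replicate, in Cy5, with 1 pool of RNA from 2 control replicates, in Cy3, and the dyes were not swapped. Control cells carried the loxP-flanked alleles and the Cre as well but saw no tamoxifen, so an effect of the drug, of active Cre or of the dyes cannot be told apart from that of AIMP3 loss. Which promoter drives the Cre and how many clones were used are not given in the sources used here. The labels describe culture on feeder layers of embryonic fibroblasts, whereas the methods describe medium conditioned by them during drug treatment.

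Polycomb proteins keep developmental genes silent in embryonic stem cells. PRC2 methylates lysine 27 of histone H3 through its catalytic subunit EZH2 or EZH1, which works only together with EED and SUZ12, and JARID2 and MTF2 (PCL2) are accessory subunits that help to bring the complex to its targets, MTF2 by binding unmethylated CpG islands. PRC1 ubiquitinates histone H2A through RING1 or RNF2 (RING1B), paired with a PCGF protein such as BMI1 (PCGF4), and chromobox proteins such as CBX7, the main one in mESCs, let canonical PRC1 read the methyl mark that PRC2 leaves.

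All 10 genes had a promoter in the RefSeq table used here (GRCm38.p6), and *Jarid2* and *Mtf2* had more than 1, which made 12 promoters of 300 bases. The 250 bases before the start are printed for the 5 genes whose ratio passed the adjusted test below, since these are the members that the results turn on. For *Mtf2* only the first promoter is printed. Its second held 3 CCAAT boxes, 1 of them 98 bases before the start. Capitals mark a CCAAT box (CCAAT, or ATTGG on the other strand), the E-box CACGTG, or 1 of the E2F motifs TTTCCCGC, TTTCGCGC, TTTGCCGC and TTTGGCGC. No motif overlapped another.
Ezh1 (chr11:101226464-101226713, minus strand): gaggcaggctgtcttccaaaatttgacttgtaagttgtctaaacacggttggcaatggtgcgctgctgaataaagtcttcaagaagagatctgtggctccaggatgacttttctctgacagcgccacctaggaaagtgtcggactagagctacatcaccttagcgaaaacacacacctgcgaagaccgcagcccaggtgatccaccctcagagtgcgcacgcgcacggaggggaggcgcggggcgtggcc
Ezh2 (chr6:47595031-47595280, minus strand): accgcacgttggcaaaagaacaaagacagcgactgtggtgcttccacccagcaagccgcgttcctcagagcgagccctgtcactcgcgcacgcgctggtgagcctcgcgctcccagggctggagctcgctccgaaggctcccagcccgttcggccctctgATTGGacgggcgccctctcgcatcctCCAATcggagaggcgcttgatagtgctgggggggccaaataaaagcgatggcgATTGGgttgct
Suz12 (chr11:79992856-79993105, plus strand): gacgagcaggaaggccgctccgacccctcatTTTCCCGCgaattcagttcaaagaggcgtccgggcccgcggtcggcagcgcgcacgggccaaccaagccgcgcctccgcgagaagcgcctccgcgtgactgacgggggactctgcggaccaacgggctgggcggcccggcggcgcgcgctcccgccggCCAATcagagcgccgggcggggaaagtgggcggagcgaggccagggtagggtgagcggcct
Mtf2 (chr5:108065424-108065673, plus strand): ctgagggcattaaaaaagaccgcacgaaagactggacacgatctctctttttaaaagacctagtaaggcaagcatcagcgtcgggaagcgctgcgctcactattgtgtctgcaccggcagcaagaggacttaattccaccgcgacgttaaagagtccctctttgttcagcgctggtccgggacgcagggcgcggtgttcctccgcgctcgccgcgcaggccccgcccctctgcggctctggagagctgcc
Bmi1 (chr2:18676768-18677017, plus strand): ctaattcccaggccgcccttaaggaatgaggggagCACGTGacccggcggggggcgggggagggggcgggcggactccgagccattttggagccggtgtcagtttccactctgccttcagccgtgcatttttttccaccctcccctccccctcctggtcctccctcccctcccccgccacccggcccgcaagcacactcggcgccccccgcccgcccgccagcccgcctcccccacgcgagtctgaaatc

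In the whole 300 bases, the *Suz12* promoter held an E2F motif 219 bases before the start and a CCAAT box 61 bases before it. The *Ezh2* promoter held 3 CCAAT boxes, at 90, 64 and 11 bases before the start, and an E2F motif (TTTGGCGC) 4 bases after the start, beyond the printed stretch. An E2F motif was found in 2.3% of 32851 mouse promoters of the same length, on either strand, and in these 2 members. The *Bmi1* promoter held an E-box 215 bases before the start, a motif found in 7.2% of all promoters and in no other member. A CCAAT box was found in promoters of 6 members (37.4% of all promoters held one), and the promoters of *Ezh1*, *Ring1* and *Rnf2* and the first promoter of *Mtf2* held no match to any of these motifs. The 12 promoters were 45.7 to 74.0% G or C, against a median of 52.7% for all promoters. The one at 45.7% was the second promoter of *Mtf2*, with 2 CpG dinucleotides against 30 in the first, where the median promoter had 7. These matches describe letters only, and no binding was measured.

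The arrays were checked first with *Eef1e1* itself. Its log2 ratio was -0.90 on both arrays (SD 0.0067, n = 2; limma, Benjamini-Hochberg adjusted p = 5.01e-05), 1.87-fold lower in depleted cells, which matches the labels. Whether that probe lies in the deleted part is not given. Here and below a ratio is log2 of Cy5 over Cy3, so that a positive value is higher in AIMP3-depleted cells. The direction was taken from the dyes in the labels; the methods word the averaged ratio the opposite way round. The 24031 log2 ratios correlated between the arrays with r = 0.923 across genes, which are not independent replicates, and the SD between the arrays had a median of 0.048. The labels do not say that replicates were separate cultures, and the control was 1 pool, so p-values measure the spread between these 2 arrays alone and leave out that of control cultures.

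*Bmi1* was the only member past 1.5-fold with an unadjusted limma p under 0.05, a rule that keeps the fold and the p level given in the study's text, and it was higher in AIMP3-depleted cells. Among all genes, 5.52% were raised and 0.791% were lowered by that rule, against 1 and 0 of 9 members (6.31% in either direction, against 1 of 9). By the adjusted p alone (limma, Benjamini-Hochberg, under 0.05), *Ezh1*, *Mtf2*, *Ezh2* and *Suz12* fell and *Bmi1* rose. At this rule 23.7% of all genes were lowered and 30.6% were raised, against 4 and 1 of 9 members (54.2% in either direction, against 5 of 9). The median log2 ratio was -0.23 over the 6 PRC2 members, 0.16 over the 3 tested PRC1 members and -0.10 over all 9, against 0.02 over all genes. On arrays 1 and 2 it was -0.22 and -0.24 for the PRC2 members but 0.06 and 0.26 for the PRC1 members. The median over all 9 was 0.27 with median centring and 0.031 in the authors' deposited table, so its sign depends on the normalization. All 6 PRC2 members had a negative mean and all 3 tested PRC1 members a positive one, but with each array centred on its median in place of loess the signs of *Eed* (0.27), *Jarid2* (0.30) and *Suz12* (0.05) turned, while the median of all genes moved to 0.18. *Eed* was also above 0 with the scanner's processed signals (0.0037) and in the deposited table (0.044), as was *Jarid2* in the deposited table (0.031). The cells were measured in bulk, so fewer cells of a kind and less RNA per cell cannot be told apart.

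**Figure D1:**
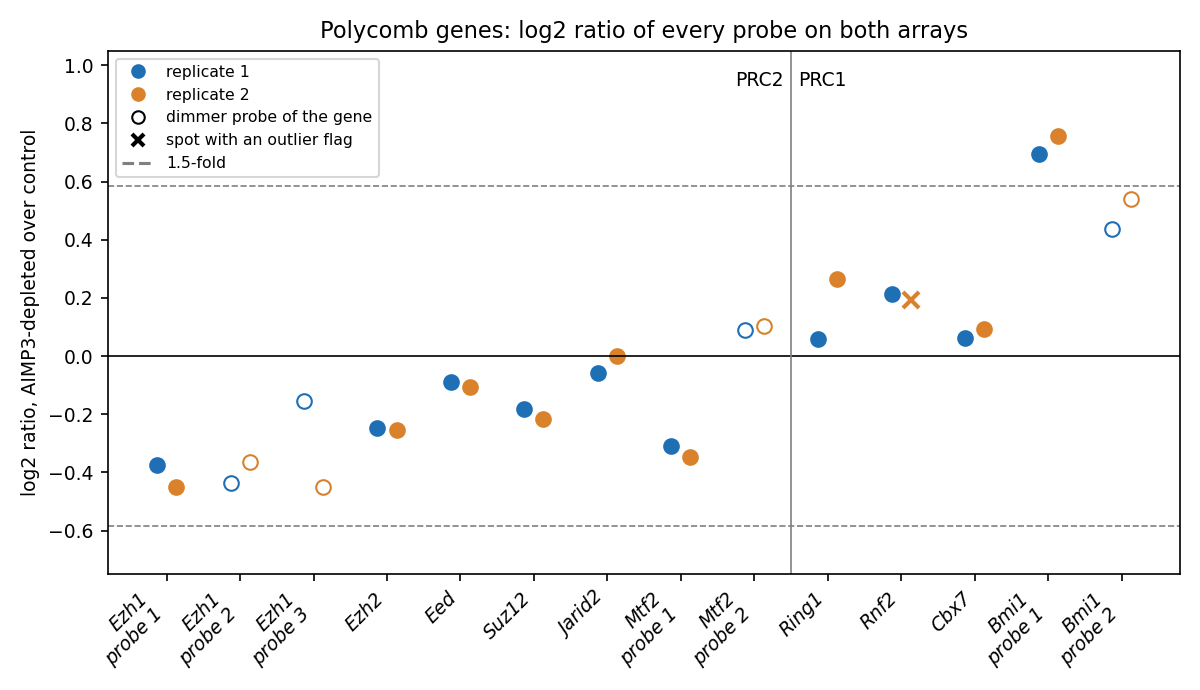
Log2 ratio (AIMP3-depleted over control, vertical axis) of each of the 14 probes on both arrays, with filled points for the brightest probe of a gene, open points for its other probes and a cross for the spot with an outlier flag. PRC2 points other than those of the second *Mtf2* probe lie at or below 0 and PRC1 points above it, and both points of the brighter *Bmi1* probe lie beyond the dashed line at 1.5-fold.

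Of the catalytic subunits of PRC2, *Ezh1* was the member with the most negative ratio. Its brightest probe read -0.37 on array 1 and -0.45 on array 2, a mean of -0.41 (SD 0.054, n = 2; 95% interval -0.52 to -0.30), or 1.33-fold lower (limma, adjusted p = 0.000689). Normalized log2 intensity was 13.26 and 13.14 in the control channel and 12.88 and 12.70 in the depleted channel, so that the channels did not overlap. With median centring the ratio of *Ezh1* was smaller, at -0.16 (limma, adjusted p = 0.0312), and still passed the test. A second *Ezh1* probe, of the same transcript, read -0.44 and -0.37 (mean -0.40), close to the first. The last and dimmest read -0.15 and -0.45 but was not well above background in the depleted channel on either array, and this probe carries little weight.

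*Ezh2*, the catalytic subunit that dividing cells use most, read -0.25 on array 1 and -0.26 on array 2, and both depleted values (12.41 and 12.40) lay below both control values (12.65 and 12.66). The mean was -0.25 (SD 0.0053, n = 2; 95% interval -0.36 to -0.15), 1.19-fold lower (limma, adjusted p = 0.0038). With median centring the ratio of *Ezh2* was -0.02 (adjusted p = 0.844), which ends the call, and its difference from the median of all genes was then -0.20.

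*Suz12*, the core subunit that holds PRC2 together, read -0.18 and -0.22, with a mean of -0.20 (SD 0.024, n = 2; 95% interval -0.31 to -0.09). It was 1.15-fold lower (limma, adjusted p = 0.00984), with depleted log2 intensities of 12.98 and 12.87 against 13.16 and 13.09 in the control channel. This small difference was past the threshold in 7 of 10 tested settings. *Eed*, which binds the methyl mark and stimulates the enzyme, read -0.09 and -0.11 (mean -0.10, SD 0.013; 95% interval -0.20 to 0.0078) and did not pass the test (adjusted p = 0.102). Its channels read 15.04 and 14.96 in control and 14.95 and 14.86 in depleted cells, so that the highest depleted value lay only just below the lowest control value. The order of the 3 core genes with a single probe was thus *Ezh2*, *Suz12* and *Eed*, from the most to the least negative, but neighbours in this order had overlapping intervals.

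*Mtf2*, a Polycomb-like subunit, gave 2 readings that did not match. Its brightest probe (NM_013827) read -0.31 and -0.35, with a mean of -0.33 (SD 0.025, n = 2; 95% interval -0.43 to -0.22), 1.26-fold lower (limma, adjusted p = 0.00139). The dimmer probe, assigned to another transcript of the gene (NM_001253877), read 0.09 and 0.10 (mean 0.10; adjusted p = 0.125 in the fit over probes), and its values turned to -0.10 and -0.0076 with the scanner's processed signals. The 95% intervals of the probes in the fit over probes, -0.44 to -0.21 and -0.01 to 0.21, did not overlap. Averaging both probes gave -0.12 and ended the call of *Mtf2* (adjusted p = 0.0578), and so did median centring of the brightest probe, at -0.046 (adjusted p = 0.583). *Jarid2*, the accessory subunit of the other PRC2 form, read -0.06 and -0.00067 (mean -0.03, SD 0.040; 95% interval -0.14 to 0.08) and did not pass the test (adjusted p = 0.609).

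**Figure D2:**
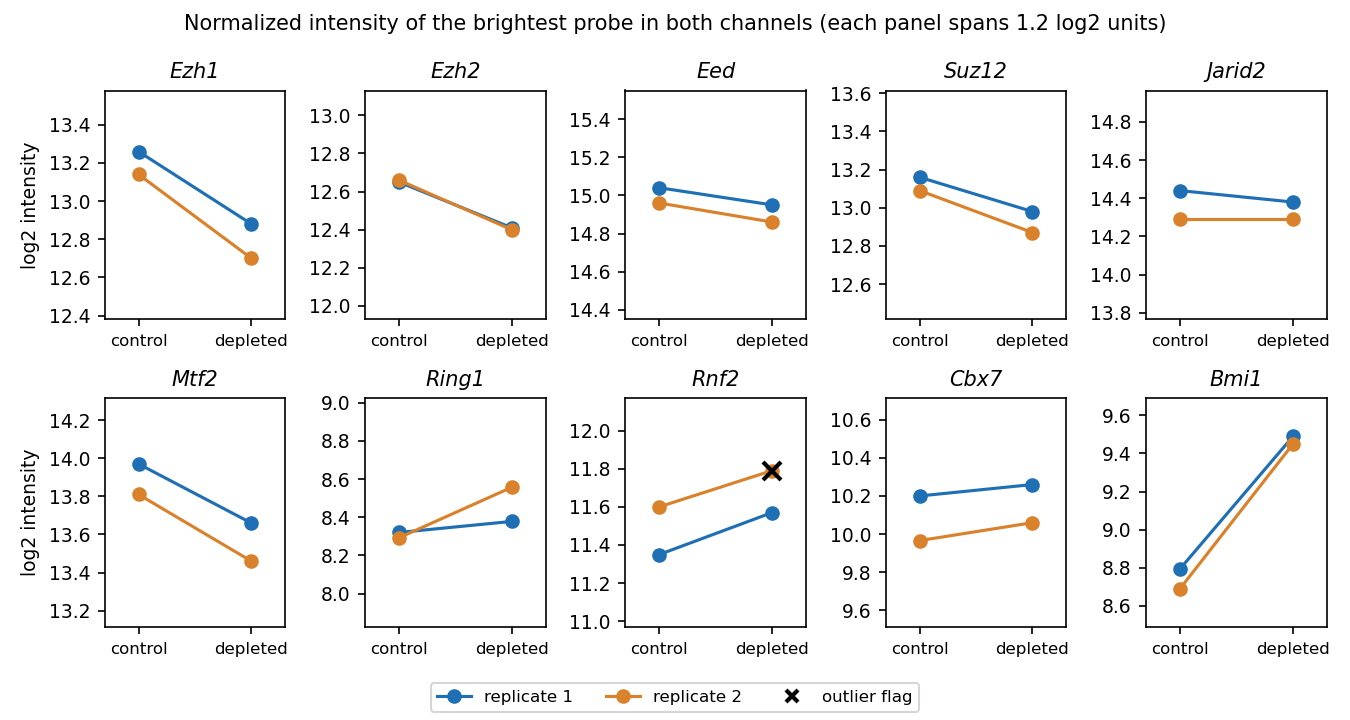
Normalized log2 intensity (vertical axis) of the brightest probe of each member in the control and depleted channels, with a line for each array and a cross on the spot with an outlier flag. Each panel has its own offset but the same span, so that slopes can be compared; both lines fall for *Ezh1*, *Ezh2*, *Suz12* and *Mtf2*, and both rise most steeply for *Bmi1*.

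Among the PRC1 genes, *Bmi1* stood apart. *Bmi1* encodes a PCGF subunit of canonical PRC1 that is known for repressing the *Cdkn2a* locus. Its brighter probe read 0.69 and 0.76, with a mean of 0.73 (SD 0.045, n = 2; 95% interval 0.62 to 0.84), 1.65-fold higher (limma, adjusted p = 9.27e-05). Scanned signals of this probe were 327 (control) and 889 (depleted) on array 1 and 332.5 and 786.5 on array 2, before background correction and before the dyes were balanced. It ranked 828 from the highest of 24031 genes. The second *Bmi1* probe, also above background in both channels, read 0.44 and 0.54 with a mean of 0.49 (adjusted p = 0.000639 in the fit over probes), in the same direction but below 1.5-fold. Because the same control pool was on both arrays, the repeat of the control channel gives the technical spread of a single channel, not that between cultures. For the brighter *Bmi1* probe it differed by 0.20 between the arrays, against an SD of 0.0821 over 17512 bright probes. The ratio of *Bmi1* lay between 0.73 and 0.89 across 5 normalizations.

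The E3 ligase genes *Ring1* and *Rnf2* both read above 0 on each array. *Ring1* read 0.06 and 0.26, with a mean of 0.16 (SD 0.146, n = 2; 95% interval 0.02 to 0.31), and did not pass the test (limma, adjusted p = 0.0611). By the brightest probe its arrays differed more than those of any other tested member, and *Ring1* passed when probes had to be well above background in both channels (adjusted p = 0.0468), where fewer genes were tested. *Rnf2*, the ligase most used in mESCs, read 0.21 on array 1. Its spot on array 2 carried an outlier flag and was dropped, and without that rule it read 0.19. With flagged spots kept, a setting chosen after seeing the data, the mean of *Rnf2* was 0.20 (adjusted p = 0.0091), although for this probe array 1 minus array 2 was -0.44 in the control channel and -0.45 in the depleted channel, far from 0 beside the SD given above. *Cbx7* read 0.06 and 0.09 (mean 0.08, SD 0.021; 95% interval -0.03 to 0.19) and did not pass the test (adjusted p = 0.177).

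Ordered by their ratio, the 9 tested members ran *Ezh1*, *Mtf2*, *Ezh2*, *Suz12*, *Eed*, *Jarid2*, *Cbx7*, *Ring1* and *Bmi1*. The 95% intervals of neighbours overlapped throughout, except between *Ring1*, whose interval ended at 0.31, and *Bmi1*, whose interval began at 0.62. The order therefore separates *Bmi1* from the rest and leaves adjacent members undivided. The middle 90% of all genes lay between -0.36 and 0.62 (the 5th and the 95th percentile). *Ezh1* was below this range and *Bmi1* above it, and the other 7 lay inside. From the lowest of 24031 genes, *Ezh1* ranked 808, *Mtf2* 1605, *Ezh2* 2766 and *Suz12* 3936.

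**Figure D3:**
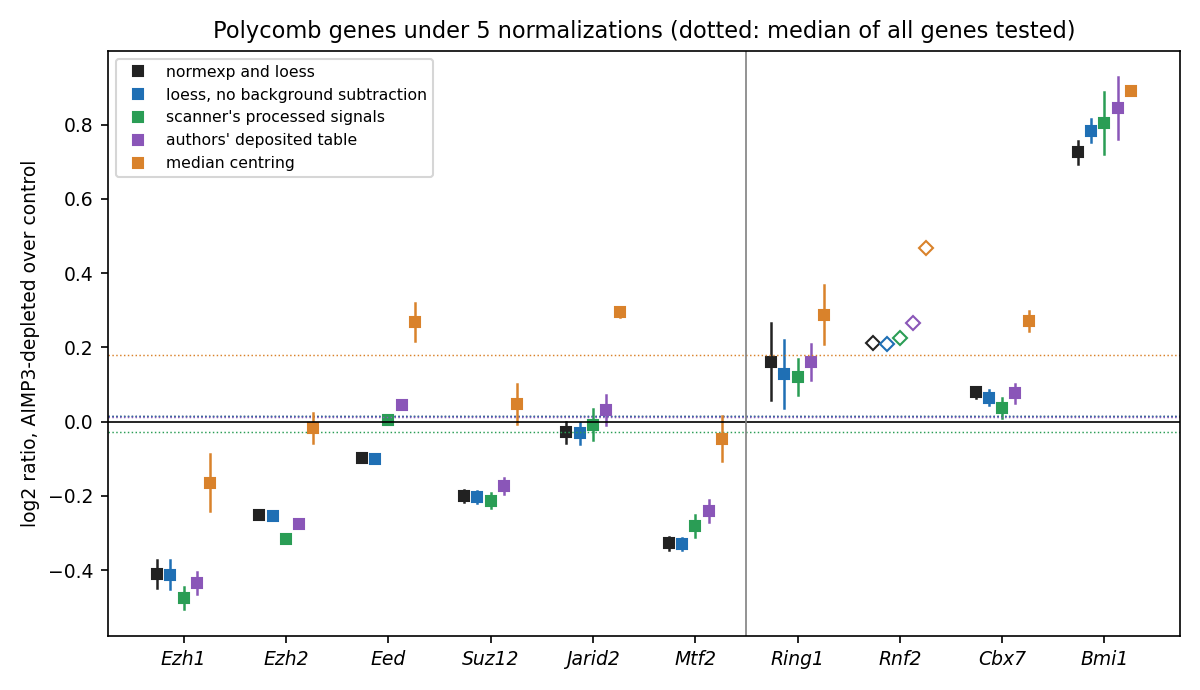
Log2 ratio (vertical axis) of the brightest probe of each member under 5 normalizations, as the mean of both arrays with a line between the 2 array values; open diamonds mark *Rnf2*, given from array 1 alone, and dotted lines the median of all genes. With median centring the value drawn for each member and the median of all genes (0.18) lie higher than with loess, and *Eed*, *Jarid2* and *Suz12* lie above 0, whereas *Ezh1* stays below 0 and *Bmi1* is highest throughout.

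The rest of the machinery was read from lists of genes beside the members, without a test of any list. For comparison with this list and those that follow, 5.52% of all genes were raised and 0.791% lowered past 1.5-fold. By the adjusted p 30.6% of all genes rose and 23.7% fell. Of 9 other PRC2 genes, 0 passed 1.5-fold, and 2 rose and 3 fell by the adjusted p, with a median of 0.03. The most negative was *Phf19*, a Polycomb-like subunit related to *Mtf2*, at -0.51 and -0.49 (mean -0.50, adjusted p = 0.000286). The most positive was *Epop*, which links PRC2 to elongin, at 0.31 and 0.24 (mean 0.27, adjusted p = 0.00319). The other Polycomb-like gene beside *Mtf2*, *Phf1*, named here after its values were seen, read 0.06 and 0.0025 (mean 0.03) and did not pass the test (adjusted p = 0.591).

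Of 28 tested genes among 31 other PRC1 genes, 2 were raised past 1.5-fold and 0 were lowered, and by the adjusted p 13 rose and 6 fell, with a median of 0.12. That median was 0.35 with median centring and 0.17 in the deposited table. *Yaf2*, which takes the place of chromobox proteins in variant PRC1, read 0.63 and 0.80 (mean 0.71, adjusted p = 0.000181). The most negative was *Phc1*, a polyhomeotic subunit, at -0.36 and -0.32 (mean -0.34, adjusted p = 0.00123).

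Of the 9 genes that remove Polycomb marks, none passed 1.5-fold and by the adjusted p 3 rose and 1 fell (median 0.10). The median of this list was 0.06 on array 1 and 0.10 on array 2, 0.03 with processed signals and 0.31 with median centring. *Asxl1* and *Asxl3*, which encode partners of the H2A deubiquitinase BAP1, were at either end, with *Asxl1* at -0.31 and -0.40 (mean -0.35, adjusted p = 0.00125) and *Asxl3* at 0.45 and 0.21 (mean 0.33, adjusted p = 0.00604). Of 15 tested genes of the opposing Trithorax and COMPASS complexes, 1 was raised past 1.5-fold and 0 were lowered, and by the adjusted p 3 rose and 1 fell (median 0.02). This median was -0.03 on array 1, 0.06 on array 2 and 0.26 with median centring, where that of all genes was 0.18. The histone H3 lysine 4 methyltransferase gene *Setd1b* read 0.56 and 0.71 (mean 0.64, adjusted p = 0.000228), and *Dpy30*, a shared subunit of these complexes, read -0.44 and -0.37 (mean -0.41, adjusted p = 0.000687).

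Regulators that are known Polycomb targets in mESCs, a list of transcription factors and the *Cdkn2a* and *Cdkn2b* genes, were read in the same way. Of all genes, 5.52% were raised and 0.791% lowered past 1.5-fold, and 30.6% rose and 23.7% fell by the adjusted p. Of 30 tested of 35, 11 were raised and 1 was lowered past 1.5-fold, and by the adjusted p 19 rose and 6 fell, with a median of 0.36. This median was 0.16 with no filter on dim probes, 0.24 with flagged spots kept and 0.49 where both channels had to be well above background. The endoderm factors *Sox17* (mean 1.44), *Foxa2* (mean 1.38) and *Gata6* (mean 1.203) rose most together with the cell cycle inhibitors *Cdkn2b* (mean 1.28) and *Cdkn2a* (0.78 and 1.16, mean 0.97). *Cdkn2a*, the locus that BMI1 is known to repress, and *Bmi1* were both higher on both arrays. The neural factor *Olig1* was lower, at -0.72 and -0.80. Of the *Hox* genes, 20 of 39 could be tested, 5 were raised past 1.5-fold and 0 were lowered, and by the adjusted p 16 rose and 0 fell, with a median of 0.40. It was 0.15 with no filter on dim probes, which lets in *Hox* genes not tested here, and 0.64 and 0.68 with processed signals and in the deposited table. Among those past 1.5-fold were *Hoxa3* (mean 0.88), *Hoxb9* (0.85), *Hoxc6* (0.76) and *Hoxb4* (0.71), and the most negative was *Hoxd4* (-0.12, adjusted p = 0.0586). A gene that is dim in control cells enters the test through the depleted channel alone, and both channels passed that limit for 27 of the 30 regulators and 16 of the 20 *Hox* genes.

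**Figure D4:**
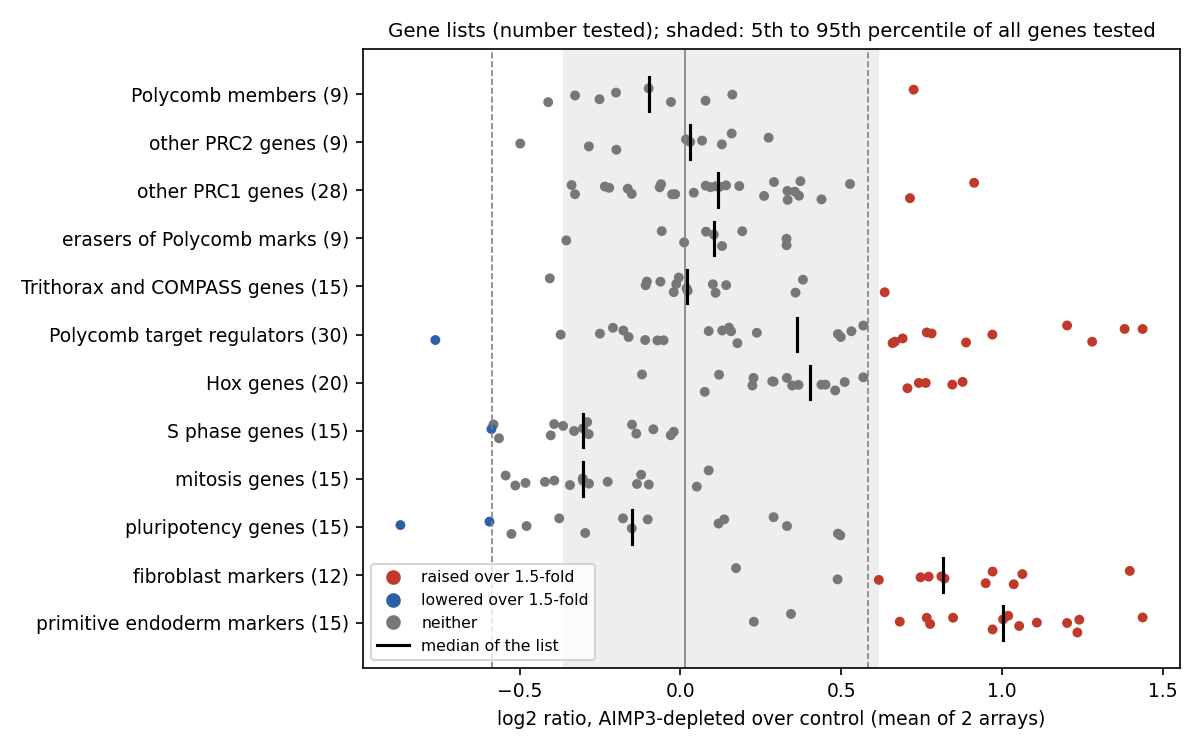
Log2 ratio (horizontal axis, mean of 2 arrays) of each tested gene in 12 lists, with red and blue points past 1.5-fold, a black bar at the median of the list and shading for the middle 90% of all genes. The Polycomb members and the other machinery spread around the grey line at the median of all genes, while the target regulators and *Hox* genes have medians of 0.36 and 0.40 (0.16 and 0.15 with no filter on dim probes) and the fibroblast and primitive endoderm markers lie highest.

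Markers of other cells and of the cell cycle moved as well, and their part in the results above was not tested. By the adjusted p 30.6% of all genes rose and 23.7% fell. All 15 primitive endoderm markers rose by the adjusted p (median 1.00), their summed normalized intensity going from 225300 and 233100 to 450000 and 450300, and 3 of them, *Gata4*, *Gata6* and *Sox17*, are also in the list of target regulators. The 5 highest were *Sox17* (1.44), *Sparc* (1.24), *Col4a1* (1.24), *Gata6* (1.203) and *Sox7* (1.11). Of 14 fibroblast markers 12 were tested and all 12 rose (median 0.82), the sum going from 26010 and 25170 to 50420 and 48950, with no tested marker below background in the control channel. The 5 highest were *S100a4* (1.40), *Col1a1* (1.06), *Col1a2* (1.04), *Pdgfra* (0.97), which is in the endoderm list too, and *Col3a1* (0.95). Of 15 pluripotency genes, all clear of background, 5 rose and 8 fell (median -0.15), and *Fgf4* (-0.87) and *Tdgf1* (-0.59) were lowered past 1.5-fold, while *Dppa5a* (0.50) was highest. *Tbx3*, among those that rose, is in the list of target regulators too. Beside the lower PRC2 genes, 12 of 15 S phase genes fell and 0 rose (median -0.30; summed intensity 372500 and 362200 in control, 290300 and 278400 in depleted cells), and 10 of 15 mitosis genes fell and 0 rose (median -0.30; 255600 and 245600 in control, 220500 and 210400 in depleted cells). The replication gene *Gins2* (-0.59) was lowered past 1.5-fold, and of the mitosis genes, none of which was, *Bub1* (-0.54) was lowest and *Cdc20* (0.09) highest.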

How the data were processed

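Spot intensities were deposited by the authors as scanner output of 2 two-colour Agilent arrays on 1 slide, made with Feature Extraction (version 11.5.1.1 in the file headers, another version than the methods name) on an array designed on mm9. The authors' files also hold processed signals with background subtracted and dyes normalized, and a log10 ratio that was deposited but only compared. GeneSpring output was deposited by the authors as a value table of log2 ratios. It equals the log2 ratio of the processed signals plus a constant (0.0404 and 0.0395) within 0.01 for 99.7% of probes, so scale and direction are known but the reason for the shift is not, and the column medians are 0.0909 and 0.111. Of its per-sample columns 0 were left out.

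The design had assumed mean signals, but the files hold medians, which were used. Background correction was by normexp (offset 50), control spots were dropped, loess was run within each array, and flagged spots (215 and 227) were left out. Of 55681 probes, 33022 passed the scanner's test for signal well above background on both arrays, in 1 channel or the other. The brightest probe stands for a gene. Names came from a RefSeq table (GRCm38.p6), which matched 31014 of 59305 spots, and the other spots kept their name on the array. The mean log2 ratio was tested against 0 with limma (lmFit and eBayes, 1 residual and 5.25 prior degrees of freedom, two-sided), with Benjamini-Hochberg adjustment over 24031 genes. The pool counts as 1 control sample. Calls used 1.5-fold with limma's unadjusted p under 0.05 (the study's text gives this fold and p level, without saying whether p was adjusted), or an adjusted p under 0.05.

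Members and lists were chosen with earlier results of these data known. Genes named from a list are those past 1.5-fold (at most 5 a direction) or, with none, the most extreme one in that direction. *Gata4* and *Tbx3* are named only because 2 lists share them. The values of 2 genes that this rule names are not reported here. The alternatives were other background and dye corrections, the deposited table, filters, probe rules, fold thresholds, the methods' t-test, each replicate left out and flagged spots kept. The scripts were tested on simulated data. How precise the values are depends on having 2 arrays. Spots read 2.68 to 3.31 times their background in the median. The software was limma 3.58.1 in R 4.3.3.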

Additional observations from a re-analysis of the deposited data

How the results depend on the processing

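Over 82 combinations of a member and an alternative with a test, 63 kept direction and call and 6 changed sign. Of the rest, which kept their sign, 9 lost the call and 4 gained it. Among the 6 with another sign, all named below, *Suz12* lost its call and *Eed* and *Jarid2* gained one with median centring. In the other 18, each with 1 replicate left out, there was no test. *Ezh1*, *Ezh2* and *Mtf2* were negative and *Bmi1*, *Ring1* and *Cbx7* positive in all 12 settings run, and leaving out a replicate turned no sign (*Ring1* 0.06 to 0.26, *Jarid2* -0.06 to -0.00067). The cause of each difference below was not tested.

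With median centring, *Eed* was 0.27, *Jarid2* 0.30 and *Suz12* 0.047, all with the sign turned. *Ezh2* (-0.017) and *Mtf2* (-0.046) lost the call, and *Cbx7* (0.27) and *Ring1* (0.29) gained it. The members' median was then 0.27. By the adjusted p 5 members were raised and 1 was lowered, where 15192 of 24031 genes passed in either direction, against 13034 with loess. Of the other Polycomb, Trithorax, target and *Hox* lists, 30 genes were raised past 1.5-fold, against 19. Against the median of all genes, which median centring moved to 0.18, *Suz12* was still lower by that centring (-0.13), as were *Ezh2* (-0.20), *Mtf2* (-0.23) and *Ezh1* (-0.34), and *Eed* (0.09) and *Jarid2* (0.12) were higher. Of the genes called past 1.5-fold, 87.5% were raised (1327, and 190 lowered), against 97.8% (2823 and 65) with median centring, 71.6% (1944 and 772) with processed signals and 77.6% (2131 and 617) in the deposited table. With processed signals *Eed* was 0.0037, the members' median -0.0090 and the median of the other PRC2 genes -0.032. In the deposited table *Eed* was 0.044, *Jarid2* 0.031, the members' median 0.031 and *Suz12* -0.17 (limma, adjusted p = 0.0501). In both of these 3 listed genes were lowered past 1.5-fold, against 1.

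The mean of all probes left *Mtf2* at -0.12. The filter on both channels raised *Ring1* (0.16) to a call and the number of members raised to 2, as did keeping flagged spots for *Rnf2* (0.20), with a members' median of -0.064. By the adjusted p 12766 of 22592 genes passed in either direction with that filter, and 13019 of 24054 with flagged spots kept. At 1.2-fold 2 members were lowered (4484 genes raised and 2554 lowered in all), and at 2-fold 0 were raised (281 and 17). The methods' t-test called 864 genes raised and 128 lowered past 1.5-fold with an unadjusted p under 0.05, 7 of them raised in the other lists, and 0 after Benjamini-Hochberg adjustment, so that 0 members rose and 0 fell and *Bmi1* (0.73), *Ezh1* (-0.41), *Ezh2* (-0.25), *Mtf2* (-0.33) and *Suz12* (-0.20) lost the call. No paired analysis was possible because the control was a single pool present on both arrays.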
